A study of Mus musculus with 22 samples.

Results

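Interferon-induced genes are transcribed when a cell senses interferon, or the microbial signals that lead to it. The members were 45 mouse genes chosen by name from this family, and 38 of them had a probe set with their name on the array, out of 11807 genes measured. The other 7 (Ddx58, Eif2ak2, Oas1a, Bst2, Isg15, Ifi44 and Xaf1) were not named in the annotation used here. By role, the measured members were 7 sensors of foreign nucleic acid, 5 transcription factors, 12 antiviral effectors, 1 gene of the ISG15 system, 6 GTPases and 7 others. They were chosen by name and not by a rule on measured values, but earlier results of these data were known at the time. Transcripts were measured on 22 arrays of RNA scraped from the inner layer (intima) of mouse aortas, a preparation labelled as aortic endothelial cells, and all mice were C57BL/6 kept on chow. Fresh intima came from mice of 4 weeks of age, either ApoE -/- (n = 4), which lack apolipoprotein E and were labelled hyperlipidemic before lesions, or wild type (n = 6). In the other groups, opened aortas of wild-type mice, whose age the labels do not give, were kept for 4 h in culture medium with 1% serum before the intima was taken. The medium held no addition, LPS at 4 ng/mL (lipopolysaccharide, from the bacterial outer membrane), or an oxidized lipid at 50 µg/mL. The lipids were oxLDL, the oxidized low-density lipoprotein particle, and oxPAPC, a mixture of oxidized phospholipids, and each of these groups had n = 3 arrays. The knockout is carried by every cell of the animal, and the number of animals behind an array is not given, so the p-values rest on array-to-array spread alone, which may be technical.

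Type I interferons bind a receptor on the cell surface, and the kinases JAK1 and TYK2 then activate factors that include STAT2 and IRF9 and bind a promoter sequence called the interferon-stimulated response element (ISRE). Type II interferon, made mainly by lymphocytes, strongly induces the guanylate-binding and immunity-related GTPases. LPS is sensed by TLR4, whose adaptor TICAM1 leads through the kinase TBK1 and IRF3 to transcription of interferon beta and, directly, of some of the same target genes. In endothelium the family is known for antiviral defence and for chemokines that draw leukocytes to the vessel wall.

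Values are log2 signals, so a difference of 1 is a doubling of signal, and a gene was called in a comparison where its adjusted p in limma (Benjamini-Hochberg over all genes tested) was under 0.05. A level filter kept genes whose signal exceeded the array's 40th percentile (4.58 to 4.71) on no fewer arrays than the smaller of the compared groups has. Of the 38 measured members, 23 were above it on all 22 arrays, and 3 (Dhx58, Ifi204 and Mx2) were below it on every array. The correlation between arrays of the same group, taken over genes, ranged from r = 0.977 to 0.991. Of 16 measured endothelial markers, 15 were above the 40th percentile on every fresh wild-type array, as were 11 of 12 smooth muscle markers, so the scraped layer was not endothelium alone. Of 10 measured dendritic cell markers, 5 were above it on every fresh wild-type array and 6 on every incubated array, while Flt3, Cd209a, Ccr9 and Xcr1 were below it on all 22 arrays, as were 6 of 12 lymphocyte markers, Cd3e and Ms4a1 among them. In such bulk samples, fewer cells of a type and less RNA per cell cannot be told apart.

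LPS raised 14 of the 33 tested members against medium and lowered none (42.4%, where 3.36% of all 7550 genes were called higher and 5.68% lower). The median change of the tested members was 1.01 on the log2 scale, and that of all genes was -0.03. By role, 8 of 11 tested antiviral effectors rose, 4 of 5 tested sensors, 1 of 6 GTPases and 1 of 7 other members. None of the 4 tested transcription factors was called. On 21 of 33 tested members all 3 LPS arrays lay above all 3 medium arrays, which held for 15.7% of all genes tested.

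Rsad2 encodes viperin, an enzyme that makes a chain-terminating nucleotide against viral polymerases. Its log2 signal was 6.91, 6.76 and 5.90 in medium and 10.82, 10.37 and 9.56 with LPS. The LPS arrays were all far above the medium arrays, a difference of 3.73 ± 0.38 (SE, 13.3-fold, adjusted p = 0.00041 in limma), and its other probe sets differed by 4.07 and 4.09. Cmpk2, a mitochondrial nucleotide kinase and the neighbour of Rsad2 on chromosome 12, had signals of 5.25, 5.14 and 4.79 in medium and 7.80, 7.04 and 5.97 with LPS. The groups did not overlap (1.88 ± 0.34, adjusted p = 0.0099 in limma).

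The IFIT genes encode tetratricopeptide proteins that bind viral RNA. Ifit1 had signals of 6.63, 6.84 and 5.54 in medium and 10.21, 9.34 and 8.96 with LPS, a difference of 3.17 ± 0.41 (9.0-fold, adjusted p = 0.0019 in limma). Ifit2 rose from a mean of 4.56 to 7.96 (3.40 ± 0.43, adjusted p = 0.0016 in limma). Its neighbour Ifit3 rose from 6.56 to 9.62 (3.06 ± 0.41, adjusted p = 0.002 in limma). All 3 IFIT genes were separated without overlap, and Ifit1 was lowest on the same medium array, replicate 11, on which Rsad2 was lowest.

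Mx1 encodes a dynamin-like GTPase that blocks influenza viruses, although C57BL/6 mice carry a defective allele. Its signals were 3.45, 3.65 and 3.54 in medium, below the 40th percentile, and 6.37, 6.47 and 4.63 with LPS. LPS replicate 10 was much lower than the others but still above every medium array (2.27 ± 0.37, adjusted p = 0.0055 in limma). Mx1 exceeded the 40th percentile on these 3 of the 22 arrays alone, so it was tested only through the group where it was high, and the size of its difference is uncertain. Oasl1, an OAS-like protein that restrains Irf7 translation, rose from a mean of 3.94 to 5.72 (1.79 ± 0.33, adjusted p = 0.011 in limma). It exceeded the 40th percentile on 4 of the 22 arrays, those with LPS and medium replicate 10. Oasl1 was thus tested largely through the group where it was high, and the size of its difference is uncertain. Its neighbour Oasl2 differed by 1.31 ± 0.50 with overlapping groups and was not called (adjusted p = 0.11 in limma). Samhd1, which degrades deoxynucleotides, read 7.23, 7.74 and 7.05 in medium and 8.58, 8.17 and 8.14 with LPS on its brightest probe set (0.96 ± 0.20, adjusted p = 0.017 in limma), but its second probe set read 5.39 in medium and 5.15 with LPS. Ifitm3, a membrane protein that traps viruses in endosomes, had the same mean of 11.41 in both groups (95% interval of the difference, -0.29 to 0.29).

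Among the sensors, Ifi209 had the smallest p of all members. This PYHIN protein of the interferon-inducible p200 family had signals of 4.36, 4.4 and 3.85 in medium and 7.48, 8.28 and 7.49 with LPS (3.55 ± 0.24, adjusted p = 1.93e-05 in limma). All 3 medium values were below the 40th percentile, so the difference is counted from signals near background and its size is uncertain. Its relatives in the same cluster on chromosome 1, Ifi203 and Ifi205, rose by 1.90 ± 0.38 and 1.57 ± 0.34 (adjusted p = 0.014 and 0.019 in limma). These genes are close copies of each other and their probes may share signal. Ifih1, which encodes the RNA helicase MDA5, had signals of 6.63, 6.77 and 5.94 in medium and 8.07, 7.45 and 7.57 with LPS (1.25 ± 0.26, adjusted p = 0.018 in limma). Zbp1, a sensor of left-handed nucleic acid, read 4.82, 4.88 and 4.75 in medium and 6.64, 5.85 and 4.99 with LPS, all above but not called (adjusted p = 0.077 in limma).

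None of the tested factors that drive the programme was called, although some groups did not overlap. Irf1 read 8.64, 8.49 and 8.55 in medium and 9.54, 9.28 and 9.05 with LPS, all above (0.73 ± 0.23, adjusted p = 0.068 in limma). Irf8 read 4.67, 4.94 and 4.93 in medium and 4.10, 4.54 and 4.14 with LPS, all below and near the level filter (-0.58 ± 0.19, adjusted p = 0.069 in limma). Both were called after cyclic loess normalization, and Irf1 also with only the 2 groups fitted. Irf9 was higher without overlap (0.60 ± 0.25) and Stat2 differed by -0.18 ± 0.26, with 0.67 on its second probe set. Irf7 was below the level filter. Among the GTPases, which attack the membranes around intracellular pathogens, Gbp3 rose from 6.69, 7.22 and 5.73 to 9.16, 8.51 and 7.66 (1.90 ± 0.44, adjusted p = 0.025 in limma). Adar, Ifi35, Tor3a and Lgals3bp were among the members not called, at 0.13 to 0.44. The other GTPases differed by 0.16 (Igtp) to 1.0 (Irgm1) and were not called. Rtp4, which restrains RNA virus replication, rose by 1.53 ± 0.37 (adjusted p = 0.028 in limma). Sp100, a nuclear body protein, differed by 1.39 ± 0.44 without overlap and missed the threshold (adjusted p = 0.067 in limma). Usp18, which removes ISG15 from proteins, was below the level filter in this test, with means of 3.79 in medium and 5.55 with LPS and no overlap. Of the second probe sets of called members, 7 of 8 moved in the direction of the brightest one, the exception being that of Samhd1.

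**Figure D1:**
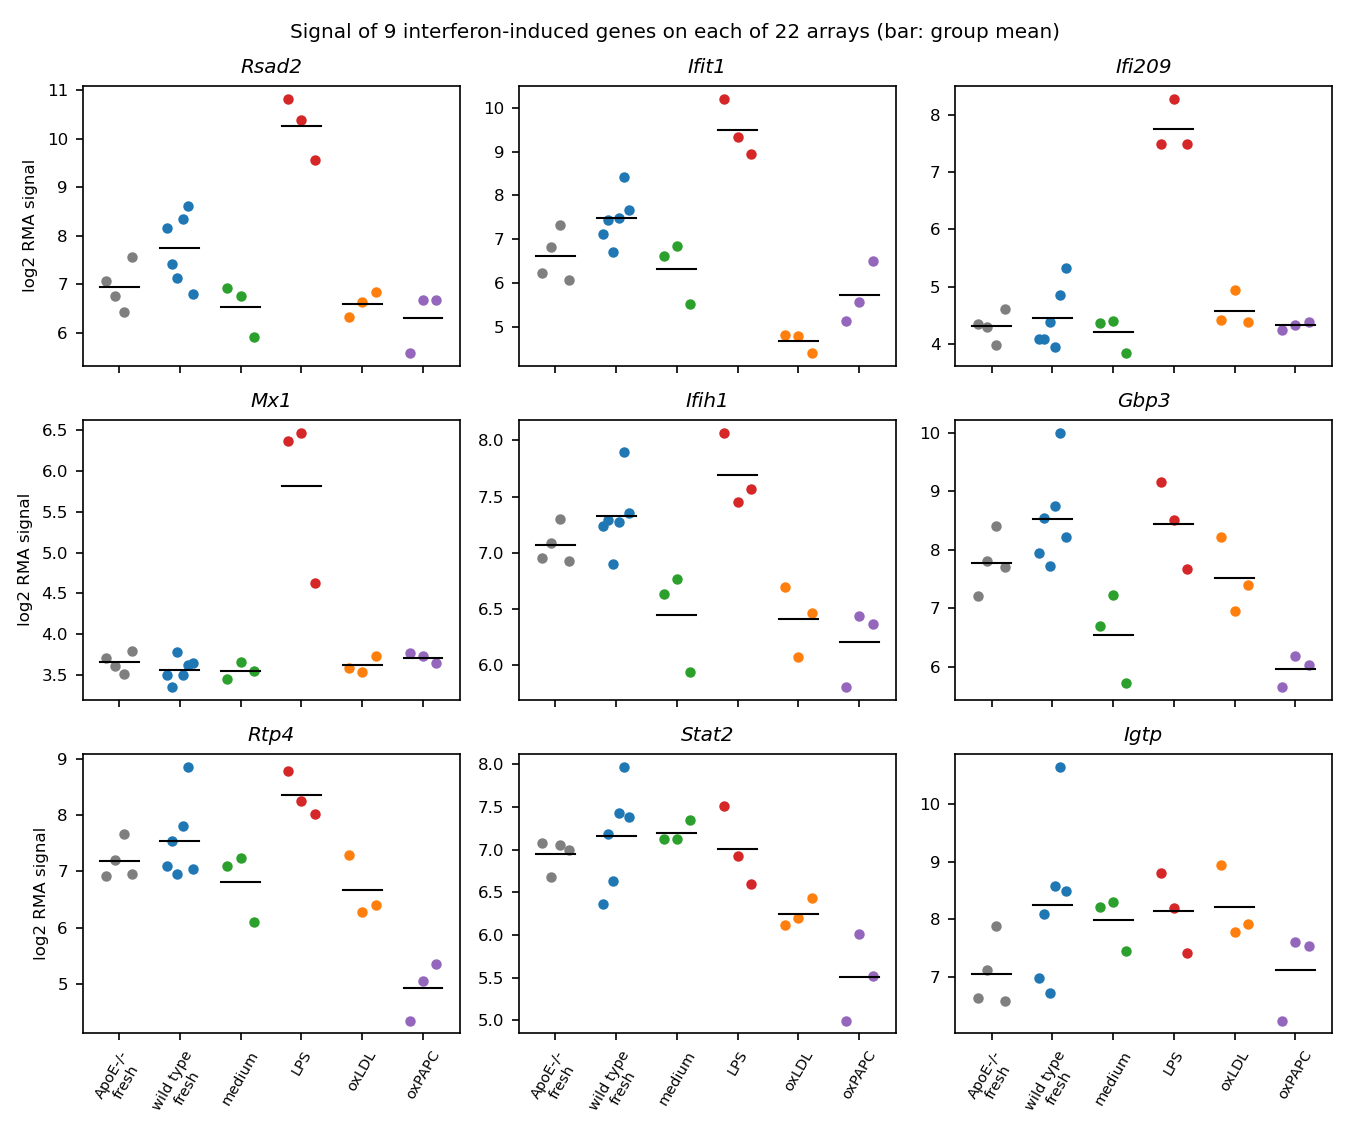
Log2 RMA signal (vertical axis) of 9 interferon-induced genes in the 6 groups (horizontal axis), with 1 point per array and a bar at each group mean. The 3 LPS arrays lie above all others for Rsad2, Ifit1, Ifi209 and Mx1, the 3 oxPAPC arrays lie lowest for Rtp4 and Stat2, and 1 fresh wild-type array stands at 10.65 for Igtp.

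Marker levels of other cells moved in this comparison as well. The mean of the 12 smooth muscle markers was 7.30 to 8.38 in medium and 8.46 to 8.83 with LPS, and 3 of 12 were called higher. The mean of the 16 endothelial markers was 8.40 to 8.55 in medium and 7.89 to 8.23 with LPS, and the mean of the 15 macrophage markers was 6.30 to 6.49 and 5.57 to 6.09. With the smooth muscle marker level as a covariate, 9 members were called with LPS, and 97 of all genes in place of 683: the calls of Cmpk2, Ifi203, Ifi205, Samhd1, Gbp3 and Rtp4 were lost and Irf9 was called. As that level did not overlap between the groups, the fit cannot tell it apart from LPS. The count was 9 also without medium replicate 9, without medium replicate 11 or without LPS replicate 3, and it ranged up to 19 over the arrays left out in turn. The 8 members called whichever array was left out were Rsad2, Ifit1, Ifit2, Ifit3, Mx1, Cmpk2, Oasl1 and Ifi209, and the calls of Ifih1, Ifi203, Ifi205, Samhd1, Gbp3 and Rtp4 were each lost with at least 1 array left out. Among the former, Mx1 was below the level filter after cyclic loess, as were Mx1 and Oasl1 with the filter at the 60th percentile. They were not tested in those runs. LPS replicate 10 was the lowest LPS array for 31 of 38 members and medium replicate 11 the lowest medium array for 26.

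The promoters of the LPS-responsive genes are shown for a view of the ISRE in these members. In the RefSeq promoter table (GRCm38.p6), 28 of the 38 measured members had a promoter, and the 250 bases before each start were searched on both strands for GAAANNGAA, the core of the ISRE. It was found in 13 of 28 members (46.4%) and in 8.18% of the 27025 genes of the table. Of 12 members raised by LPS with a promoter in the table, 7 held it (58.3%), and of 15 tested but not called, 6 did (40%). The palindrome TTCNNNGAA, as bound by STAT pairs, was in 17.9% of members and 8.13% of all genes. The kappa-B-like GGANNTTCC was in 14.3% of members and 4.12% of all genes. A match describes the letters of this window and is not a measured binding site. Shown 5′ to 3′ in the direction of the gene, with matches of the ISRE core (either strand, overlapping ones joined) in capitals, are 5 members with the core among those that were most above oxPAPC with LPS, the comparison with the most member calls, and Ifit2 for contrast, which had the largest difference in that comparison among members whose promoters lack it. They lie at chr12:26456453-26456702 (Rsad2, minus strand), chr19:34640639-34640888 (Ifit1, plus), chr19:34583279-34583528 (Ifit3, plus), chr1:174031756-174032005 (Ifi205, minus), chr3:142559794-142560043 (Gbp3, plus) and chr19:34550444-34550693 (Ifit2, plus).
Rsad2: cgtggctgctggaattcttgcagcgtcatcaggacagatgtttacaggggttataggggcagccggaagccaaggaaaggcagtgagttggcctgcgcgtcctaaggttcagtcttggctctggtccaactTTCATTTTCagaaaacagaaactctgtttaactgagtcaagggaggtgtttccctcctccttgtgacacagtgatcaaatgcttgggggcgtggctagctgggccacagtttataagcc
Ifit1: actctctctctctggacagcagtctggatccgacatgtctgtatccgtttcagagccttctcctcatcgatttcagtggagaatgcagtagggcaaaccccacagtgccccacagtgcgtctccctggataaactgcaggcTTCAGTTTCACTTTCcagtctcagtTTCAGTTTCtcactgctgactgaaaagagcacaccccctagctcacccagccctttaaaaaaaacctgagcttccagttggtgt
Ifit3: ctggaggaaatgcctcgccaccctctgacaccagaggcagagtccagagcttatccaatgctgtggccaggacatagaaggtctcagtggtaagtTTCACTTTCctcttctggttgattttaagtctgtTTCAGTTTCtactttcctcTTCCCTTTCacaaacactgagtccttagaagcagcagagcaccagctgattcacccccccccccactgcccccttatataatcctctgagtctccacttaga
Ifi205: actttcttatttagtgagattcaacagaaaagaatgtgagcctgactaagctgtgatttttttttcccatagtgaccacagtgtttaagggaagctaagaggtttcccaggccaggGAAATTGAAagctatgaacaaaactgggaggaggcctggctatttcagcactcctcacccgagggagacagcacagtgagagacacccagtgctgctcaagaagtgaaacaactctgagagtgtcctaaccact
Gbp3: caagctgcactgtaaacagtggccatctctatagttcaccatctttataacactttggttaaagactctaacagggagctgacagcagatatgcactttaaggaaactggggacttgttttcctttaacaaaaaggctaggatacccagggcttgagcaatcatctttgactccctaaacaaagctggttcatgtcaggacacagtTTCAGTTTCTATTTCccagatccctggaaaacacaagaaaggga
Ifit2: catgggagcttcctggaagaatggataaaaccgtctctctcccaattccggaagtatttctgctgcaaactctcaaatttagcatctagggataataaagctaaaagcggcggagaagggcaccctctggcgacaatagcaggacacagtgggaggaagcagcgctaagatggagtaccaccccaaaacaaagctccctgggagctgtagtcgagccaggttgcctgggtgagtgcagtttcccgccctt
Ifit1 and Ifit3 held 3 matches each, within 84 to 109 and 102 to 155 bases of the start, Gbp3 held 2 and Rsad2 and Ifi205 held 1. The 9-letter core is a strict form, and the Ifit2 window, 1 of 2 starts in the table for that gene, has none of it although Ifit2 rose as much as Ifit1 and Ifit3.

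Outside the members, the interferons themselves were scarcely measurable with LPS. Ifnb1 had signals of 3.26, 3.60 and 3.36 in medium and 3.54, 4.02 and 4.12 with LPS, all below the 40th percentile, and it was not tested. Of 11 measured interferon genes only Ifna1 was tested, and it rose from 5.39 to 6.25 (0.86 ± 0.16, adjusted p = 0.011 in limma), although interferon alpha genes are close copies and its probe set may read several. None of 8 tested receptors and kinases and none of 7 tested signal factors was called, nor was any of 8 tested TLR4 and sensor adaptor genes. Tlr4 read 9.18, 9.12 and 8.82 in medium and 8.70, 8.87 and 8.53 with LPS. Of 36 other tested interferon-induced genes, 7 rose and 2 fell. The chemokine Cxcl10, which attracts T cells, had signals of 4.89, 4.92 and 4.06 in medium and 10.07, 9.58 and 9.01 with LPS, a difference of 4.93 ± 0.34 (adjusted p = 1.93e-05 in limma). Ccl5, another chemokine, rose by 2.83 ± 0.23, Slfn8 by 2.28 ± 0.25 and Trim34a by 1.56 ± 0.41. Ifi30, a lysosomal thiol reductase of antigen-presenting cells, and the complement inhibitor Serping1 fell by 1.5 and 1.3. Of 8 tested feedback genes, Trim21 rose and Pias1 fell.

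With oxLDL none of the 33 tested members was called against medium in limma, where 2.81% of all genes were called (0.742% higher and 2.07% lower). At an unadjusted p under 0.05 there were 3 members and 1635 of 7550 genes. The median change of the tested members was 0.06, and that of all genes was 0.01. Of the 3 members with the smallest p, Ifit1 and Stat2 were lower and Gbp3 was higher. Ifit1 read 6.63, 6.84 and 5.54 in medium and 4.83, 4.79 and 4.41 with oxLDL, without overlap (-1.66 ± 0.41, adjusted p = 0.053 in limma). Its oxLDL values were near the signal level of the filter, so the size is uncertain. The other IFIT genes stood on the other side of 0 and were not called: Ifit2 differed by 0.44 ± 0.43 and Ifit3 by 0.43 ± 0.41. Stat2, which acts with IRF9 in the factor that binds the ISRE, read 7.12, 7.12 and 7.34 in medium and 6.12, 6.20 and 6.43 with oxLDL, also without overlap (-0.95 ± 0.26, adjusted p = 0.07 in limma). The second probe set of Stat2 read 5.33 in medium and 5.38 with oxLDL. Gbp3 followed, at 8.22, 6.95 and 7.4 against 6.69, 7.22 and 5.73 in medium, with overlap (0.98 ± 0.44, adjusted p = 0.22 in limma). Without medium replicate 11, Ifit1 was called lower with oxLDL. Of the related genes outside the members, Jak1 and Gch1 fell, and no other tested gene of the 6 pathway lists was called, Tlr4 and Cxcl10 included. Ifnb1 was below the level filter.

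With oxPAPC, 9 of the 33 tested members fell against medium (27.3%, where 12.9% of all genes were called lower) and 1 rose (3.03%, against 8.34%). The median change of the tested members was -0.43, and that of all genes was -0.05. By role, 4 belonged to the other members, 2 to the transcription factors and 1 each to the sensors, GTPases and effectors. On 10 of 33 tested members (30.3%) all oxPAPC arrays lay below all medium arrays, against 22.3% of all genes. On 0 members did they all lie above, against 17.9% of all genes.

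Rtp4 had signals of 7.10, 7.24 and 6.10 in medium and 4.35, 5.05 and 5.36 with oxPAPC, all below (-1.89 ± 0.37, adjusted p = 0.0061 in limma). Its second probe set read 3.73 and 3.86, near background. Stat2 had signals of 7.12, 7.12 and 7.34 in medium and 5.00, 6.01 and 5.52 with oxPAPC (-1.69 ± 0.26, adjusted p = 0.0023 in limma), the smallest p of the members here. Its second probe set read 5.33 in medium and 5.38 with oxPAPC, so the fall rests on 1 probe set. Irf8, a factor of myeloid cells, fell from 4.84 to 4.20 (-0.65 ± 0.19, adjusted p = 0.03 in limma). Its oxPAPC values of 4.34, 4.17 and 4.08 were all below the signal level of the filter. Irf8 was thus tested largely through the medium arrays, where it was high, and the size of its fall is uncertain.

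Gbp2 read 8.23, 8.37 and 7.15 in medium and 6.11, 6.58 and 6.58 with oxPAPC (-1.49 ± 0.42, adjusted p = 0.028 in limma), and its second probe set differed by -1.58. The other GTPases lay between -0.33 (Iigp1) and -0.85 (Igtp) and were not called. Parp14, an ADP-ribosyltransferase, read 7.15, 6.98 and 7.13 in medium and 5.90, 5.82 and 5.33 with oxPAPC, without overlap (-1.40 ± 0.32, adjusted p = 0.011 in limma). Ifi205 fell by 1.39, Trim30a, a restraint on Toll-like receptor signalling, by 1.25, Ifi35 by 0.77 and Ifitm3 by 0.42. Samhd1 was called higher by 0.62 ± 0.20 with overlapping groups, while its second probe set was lower, at 4.91 against 5.39 in medium. Of the effectors that LPS raised most, the means in medium and with oxPAPC were 6.52 and 6.31 for Rsad2 and 4.56 and 4.31 for Ifit2, with overlap. Of the second probe sets of the called members, 5 of 7 moved in the same direction, but those of Irf8 and Rtp4 among the 5 were near background.

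**Figure D2:**
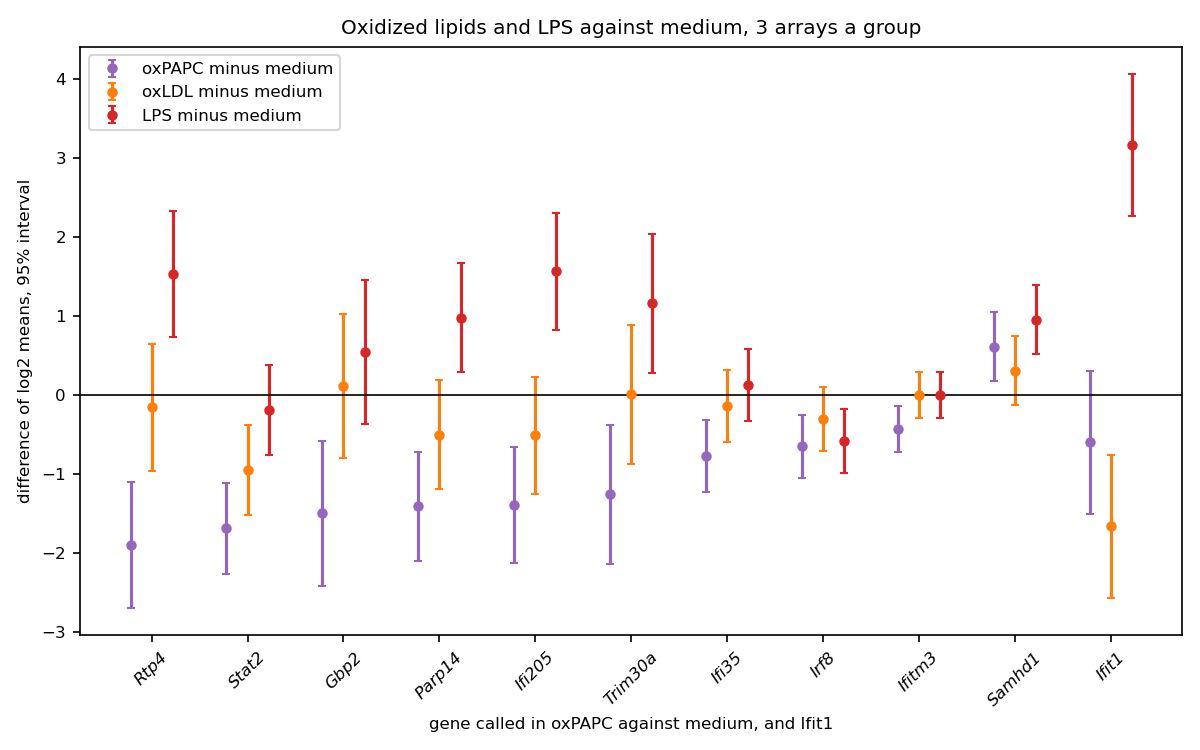
Difference of log2 means against medium with 95% intervals (vertical axis) for oxPAPC, oxLDL and LPS in the members called with oxPAPC and in Ifit1 (horizontal axis), 3 arrays a group. For Rtp4 the oxPAPC interval lies below 0, with its upper end at -1.09, and the LPS interval (0.73 to 2.34) above it, whereas for Ifit1 the oxLDL value is the lowest, at -1.66.

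These falls moved with the cell markers. With oxPAPC, 8 of 15 tested endothelial markers and 8 of 14 macrophage markers fell against medium and 9 of 12 smooth muscle markers rose. The marker means were 7.58 to 8.07 for endothelium, 5.83 to 5.91 for macrophages and 8.65 to 9.10 for smooth muscle, none of which overlapped with medium. The dendritic markers H2-Ab1, H2-Eb1, Cd74 and Itgax also fell, while Flt3, Cd209a, Ccr9 and Xcr1 were below the 40th percentile on every array. With the smooth muscle level as a covariate, no member and none of the 7550 genes was called for oxPAPC. As that level did not overlap with medium, the fit cannot tell it apart from oxPAPC. The part of cell composition in the member falls was not tested. The count of called members was 5 without medium replicate 9 or without medium replicate 10, 3 without oxPAPC replicate 11 and 4 without oxPAPC replicate 12. Rtp4, Stat2 and Parp14 were called whichever array was left out.

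Related genes outside the members also fell with oxPAPC, where 12.9% of all genes were called lower. Of 8 tested receptors and kinases 3 fell, Il10rb by 1.23, Jak2 by 0.93 and Ifngr1 by 0.84, and of 7 tested signal factors 2 fell, Irf2 by 1.16 and Irf5 by 0.71. Of 8 tested TLR4 and sensor adaptors 3 fell, Sting1, the adaptor of cytosolic DNA sensing, by 1.73, Myd88 by 1.10 and Tbk1 by 0.68. Of 8 tested feedback genes 4 fell, Socs3, an inhibitor of cytokine receptor signalling, by 1.65 ± 0.21, Cish by 0.80, Pias1 by 0.79 and Ptpn11 by 0.45. The oxPAPC mean of Socs3 was below the 40th percentile, so the size of its fall is uncertain. Of 36 other interferon-induced genes 8 fell and none rose. Serping1 (-1.28), the GTPase Irgm2 (-1.06) and the proteasome activators Psme2 (-1.03) and Psme1 (-0.87) were among them. Ifnb1 stayed below the 40th percentile on all oxPAPC arrays, Tlr4 was not called, and Cxcl10 read 4.70, 5.87 and 5.22, overlapping with medium.

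The stimuli were also set directly against each other, with the doses by mass not matched between LPS and the lipids. LPS exceeded oxPAPC on 21 of 33 tested members (63.6%, where 4.69% of all genes were called higher) and was below it on none (3.96% of all genes). These were 8 of 11 effectors, 4 of 5 sensors, 3 of 6 GTPases, 4 of 7 others and 2 of 4 transcription factors, Stat2 and Irf1. The largest difference was 3.95 ± 0.38 for Rsad2, with Ifit1 (3.76), Ifit2 (3.64), Ifit3 (3.54) and Ifi209 (3.42) close behind. Ifi209, Ifit2, Mx1 and Oasl1 were below the 40th percentile on every oxPAPC array, so the sizes of their differences are uncertain. Rtp4 read 8.78, 8.26 and 8.01 with LPS and 4.35, 5.05 and 5.36 with oxPAPC, a difference of 3.43 ± 0.37 (10.8-fold, adjusted p = 0.00042 in limma). Ifi205 differed by 2.96 ± 0.34, Oasl2 by 2.59 ± 0.50, Trim30a by 2.41 ± 0.40, Parp14 by 2.39 ± 0.32 and Gbp2 by 2.04 ± 0.42. Gbp3 (2.49), Oasl1 (2.43), Ifi203 (2.43), Mx1, Cmpk2, Ifi47, Stat2, Ifih1, Irf1 and Ifi35 made up the rest. Related genes outside the members moved the same way: 2 of 8 receptors and kinases, 1 of 7 signal factors, 2 of 8 adaptors, 2 of 8 feedback genes and 13 of 36 other induced genes were higher with LPS, and 1 of those 36, Ifi30, was lower. Cxcl10 differed by 4.29, Ccl5 by 3.25, Slfn8 by 2.62 and Tgtp1 by 2.35. Sting1 differed by 1.65, Myd88 by 0.83, Trim21 by 2.02, Socs3 by 1.00, Il10rb by 0.95, Ifngr1 by 0.85 and the signal factor Nmi by 1.12. For Socs3 the oxPAPC mean was below the 40th percentile, so that size is uncertain. Tlr4 was not called and Ifnb1 was below the level filter. Here the smooth muscle marker ranges overlapped, 0 of 12 such markers were called, and 20 members were called with that level as a covariate. Of 15 tested endothelial markers, Cdh5, Cldn5, Emcn and Eng were called higher with LPS and Clec14a lower, and the part of the endothelial level in the member differences was not tested. The calls of Cmpk2, Gbp2, Ifi35, Ifi47 and Irf1 were lost with some arrays left out. Mx1 was below the level filter, and so not tested, after cyclic loess, as were Mx1, Oasl1 and Ifi35 with the filter at the 60th percentile. All 10 second probe sets moved in the same direction.

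Against oxLDL, LPS was higher on 13 of 33 tested members (39.4%, against 2.21% of all genes) and lower on none (2.86% of all genes), where 5.07% of all genes were called in either direction. Cmpk2, Mx1, Oasl1, Ifit2, Ifit3, Rsad2 and Ifi209 were called by 1.91 to 3.66. Ifi205 was called by 2.07, Ifi203 by 1.77, Rtp4 by 1.69 and Ifih1 by 1.29. Mx1 and Oasl1 were below the signal level of the filter on every oxLDL array. Both were thus tested only or largely through the LPS arrays. Ifi209 read 4.42, 4.95 and 4.39 with oxLDL, near that level. The sizes of the differences of Mx1, Oasl1 and Ifi209 are therefore uncertain. Ifit1 led at 4.82 ± 0.41 (adjusted p = 0.0001 in limma), with 10.21, 9.34 and 8.96 for LPS and 4.83, 4.79 and 4.41 for oxLDL. Its oxLDL values were also near the signal level of the filter, so the size is uncertain. Parp14 was called here (1.48 ± 0.32), while Gbp3 (0.92 ± 0.44) and Samhd1 (0.64 ± 0.20) were not. Igtp, Ifitm3, Adar and Irf8 had differences just below 0, down to -0.29 for Irf8. Outside the members, 5 of 36 other induced genes were higher with LPS, Cxcl10 by 5.11 ± 0.34, Ccl5 by 3.23, Slfn8 by 2.14 and Slfn2 by 1.26 among them. Jak1 was higher by 0.98 and Ptpn11 lower (-0.71), no tested signal factor or adaptor was called, Tlr4 among the latter, and Ifnb1 was below the level filter. The calls of Ifi203, Ifih1, Parp14 and Rtp4 were each lost with at least 1 array left out. Mx1 was below the level filter, and so not tested, after cyclic loess, as were Mx1 and Oasl1 with the filter at the 60th percentile.

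The oxidized lipids were both given at 50 µg/mL, and between them 3 of 33 tested members were called, all higher with oxLDL (9.09%, against 7.8% of all genes, a share near the background, and 4.57% lower). They were Rtp4 (1.74 ± 0.37, adjusted p = 0.012 in limma), Gbp2 (1.61 ± 0.42) and Gbp3 (1.57 ± 0.44). Gbp3 read 8.22, 6.95 and 7.4 with oxLDL and 5.66, 6.18 and 6.03 with oxPAPC, without overlap. The second probe set of Gbp2 differed by 1.88, and that of Rtp4 by -0.02. Of the pathway genes, 3 of 8 adaptors (Sting1 by 1.67, Myd88 by 0.98 and Tlr4 by 0.75), 3 of 8 feedback genes, 1 of 7 signal factors and 4 of 36 other induced genes were higher with oxLDL, while Jak2 was higher and Jak1 lower. The feedback genes were Cish (0.87), Socs3 (0.82) and Ptpn11 (0.78), the signal factor was Nmi (0.90), and the other induced genes were Irgm2 (1.37), Serping1 (1.12), Psme1 (0.83) and Tapbp (0.53). Cxcl10 was not called and Ifnb1 was below the level filter. Ifit1 was lower on all oxLDL arrays, near the signal level of the filter, than on any oxPAPC array (-1.06, 95% interval -1.96 to -0.16) and was not called. The count was 1 without oxLDL replicate 14 or without oxPAPC replicate 12 and 0 without oxPAPC replicate 11. With the smooth muscle level as a covariate the calls of Gbp2 and Gbp3 were lost and Ifit1 was called, and with the mean of all probe sets of a gene that of Rtp4 was lost. In this comparison 6 of 15 tested endothelial markers were called higher with oxLDL, and their part in the member differences was not tested.

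**Figure D3:**
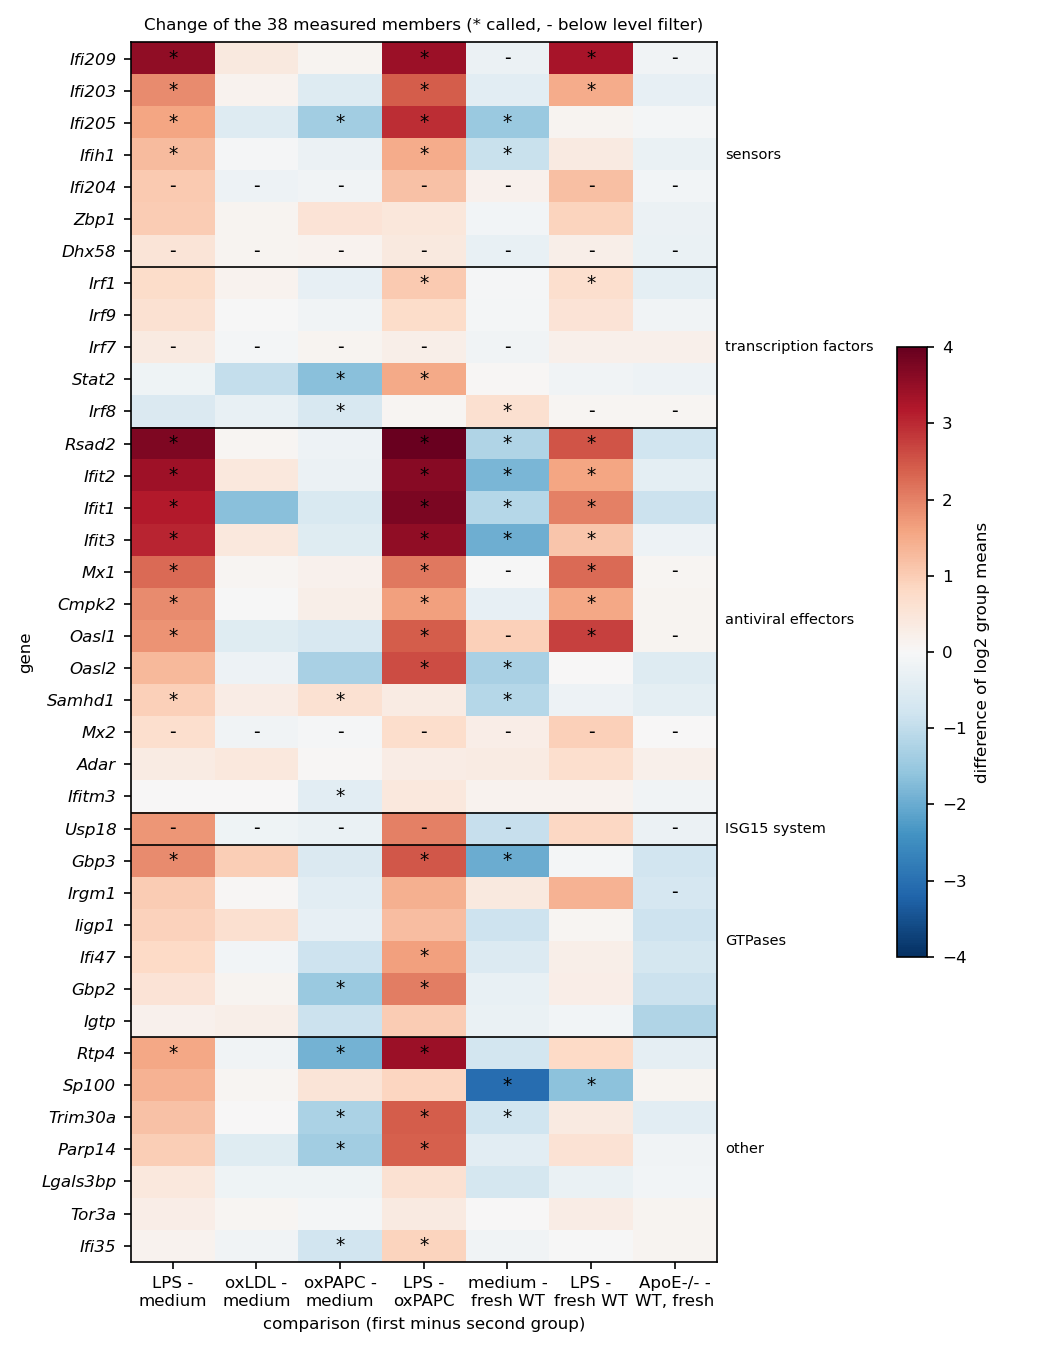
Difference of log2 group means (colour, from -4 in blue to 4 in red) for the 38 measured members (rows, ordered by role) in 7 comparisons (columns), where a star marks a call in limma and a dash a gene below the level filter. The LPS columns are red with stars among sensors and antiviral effectors, the oxLDL column and the ApoE -/- column carry no star, and Sp100 is the darkest blue cell, at -3.04 in medium against fresh wild type.

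Members also differed between aortas kept in plain medium and fresh intima, groups whose ages may not match. In medium against fresh wild-type intima, 11 of 30 tested members were lower and 1 was higher (36.7% and 3.33%, where 34.4% of all 7508 genes were called lower and 24.3% higher), so the share that fell was near the background. In either direction 58.7% of all genes were called, and 7 tested members lay wholly below the fresh arrays (23.3%, against 30.2% of all genes). Sp100 fell most, from 8.44 to 9.99 (median 9.16) on 6 fresh arrays to 6.39, 6.33 and 5.85 in medium (-3.04 ± 0.32, adjusted p = 1.98e-05 in limma). Gbp3 (-1.98 ± 0.46), Ifit3 (-1.95 ± 0.34), Ifit2 (-1.82 ± 0.34) and Ifi205 (-1.47 ± 0.32) followed, all without overlap. Oasl2, Rsad2, Samhd1, Ifit1, Ifih1 and Trim30a fell by 1.29 to 0.81. Without medium replicate 11, Ifit1 (-0.74), Rsad2 (-0.91), Trim30a (-0.54), Oasl2 (-0.83) and Samhd1 (-1.0) were not called, and the calls of Oasl2 and Samhd1 were also lost without medium replicate 9. Irf8 was the member that rose, from 4.20 to 4.84 (0.65 ± 0.12), but every fresh value was below the 40th percentile, so it was tested only through the medium arrays. Oasl1, not tested for its low level, was 2.87 to 3.12 on the fresh arrays and 3.72, 4.91 and 3.18 in medium.

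In the same comparison the mean smooth muscle marker level was 8.57 to 9.53 fresh and 7.30 to 8.38 in medium, and the mean macrophage marker level 5.04 to 5.69 and 6.30 to 6.49, so the groups did not overlap in either. Of the tested markers, 10 of 12 of smooth muscle fell and 11 of 13 of macrophages rose. With the smooth muscle level as a covariate 10 members were called: the calls of Ifit2, Oasl2 and Samhd1 were lost and Cmpk2 was called. As that level did not overlap between the groups, the fit cannot tell it apart from the incubation. The part of these shifts in the member changes was not tested. Related genes outside the members moved both ways. Called higher and lower were 2 and 2 of 8 receptors and kinases, 2 and 2 of 7 signal factors, 4 and 1 of 7 adaptors, and 3 and 1 of 8 feedback genes. Sting1 (1.92 ± 0.20), Jak2 (1.34 ± 0.17), Myd88 (1.34 ± 0.14) and Stat3 (1.27 ± 0.12) rose, and Tyk2 (-1.56 ± 0.18), Tlr3 (-1.43 ± 0.21) and Ifngr1 (-1.36 ± 0.15) fell. Socs3 rose from 2.95 to 5.41 (2.46 ± 0.12, adjusted p = 2.18e-07 in limma). Of 34 other interferon-induced genes tested, 11 fell, led by Trim34a (-2.94 ± 0.23) and Gbp7 (-2.40 ± 0.42), and 2 rose. Cxcl10 and Tlr4 were not called, and Ifnb1 was below the level filter.

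Set against fresh intima rather than medium, LPS-treated aortas had 10 of 34 tested members higher and 1 lower (29.4% and 2.94%, where 23.2% and 35.5% of all 7529 genes were called, 58.8% in either direction). This comparison shares its LPS arrays with the one against medium and its fresh arrays with the one above, so the values are given side by side. Ifi209 was 3.95 to 5.33 (median 4.24) on fresh arrays, 4.20 on average in medium and 7.75 with LPS. Rsad2 was 6.79 to 8.61 (median 7.78) on fresh arrays, 6.52 on average in medium and 10.25 with LPS. For both, every LPS array exceeded every fresh array (3.30 ± 0.31 and 2.51 ± 0.41, adjusted p = 6.70e-06 and 0.00034 in limma). Oasl1 (2.74 ± 0.14), Mx1 (2.26 ± 0.33), Ifit1 (2.03 ± 0.35), Ifit2 (1.58 ± 0.32), Cmpk2 (1.55 ± 0.31), Ifi203 (1.48 ± 0.27), Ifit3 (1.11 ± 0.38) and Irf1 (0.67 ± 0.24) were also higher, the last pair with overlap and not called without LPS replicate 3 or 4 or with the smooth muscle covariate, and Irf1 also not without fresh wild-type replicate 7 or 8. Mx1 and Oasl1 were below the 40th percentile on every fresh array, so they were tested only through the LPS arrays. Ifi209 was below it on most fresh arrays and was tested largely through the LPS arrays, so the size of its difference is uncertain.

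Other members were called higher with LPS than in medium but not against fresh intima. Gbp3 averaged 8.53 fresh, 6.55 in medium and 8.44 with LPS, and its LPS minus fresh difference was -0.08 (95% interval -1.09 to 0.93). Ifi205 averaged 7.48, 6.01 and 7.57 (0.10, interval -0.35 to 0.54), but its second probe set read 7.29 fresh and 6.76 with LPS, a difference of -0.53. Ifih1 averaged 7.32, 6.45 and 7.70 (0.37, interval -0.08 to 0.83). For Samhd1 the LPS minus fresh difference was -0.19 (interval -0.95 to 0.57), and -0.98 on its second probe set. For Rtp4 it was 0.80 (interval -0.03 to 1.63), and 0.66 on its second probe set. Outside the members, 9 of 35 other induced genes were higher with LPS than fresh and 11 lower, Cxcl10 by 5.22 ± 0.30 and Ccl5 by 2.95 ± 0.26 among the former, and Ifnb1 was below the level filter. Receptors and kinases held 2 higher and 3 lower of 8, signal factors 2 and 2 of 7, adaptors 3 and 1 of 7 and feedback genes 3 and 1 of 7, and Tlr4 was not called. The intervals of the members above are wide and leave room for differences in either direction. Sp100 was lower with LPS than fresh (-1.65 ± 0.39, adjusted p = 0.0039 in limma). The count of called members was 18 without fresh wild-type replicate 14, which added Ifih1, Zbp1, Irf9, Adar, Irgm1, Parp14 and Rtp4, and 17 without LPS replicate 10.

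**Figure D4:**
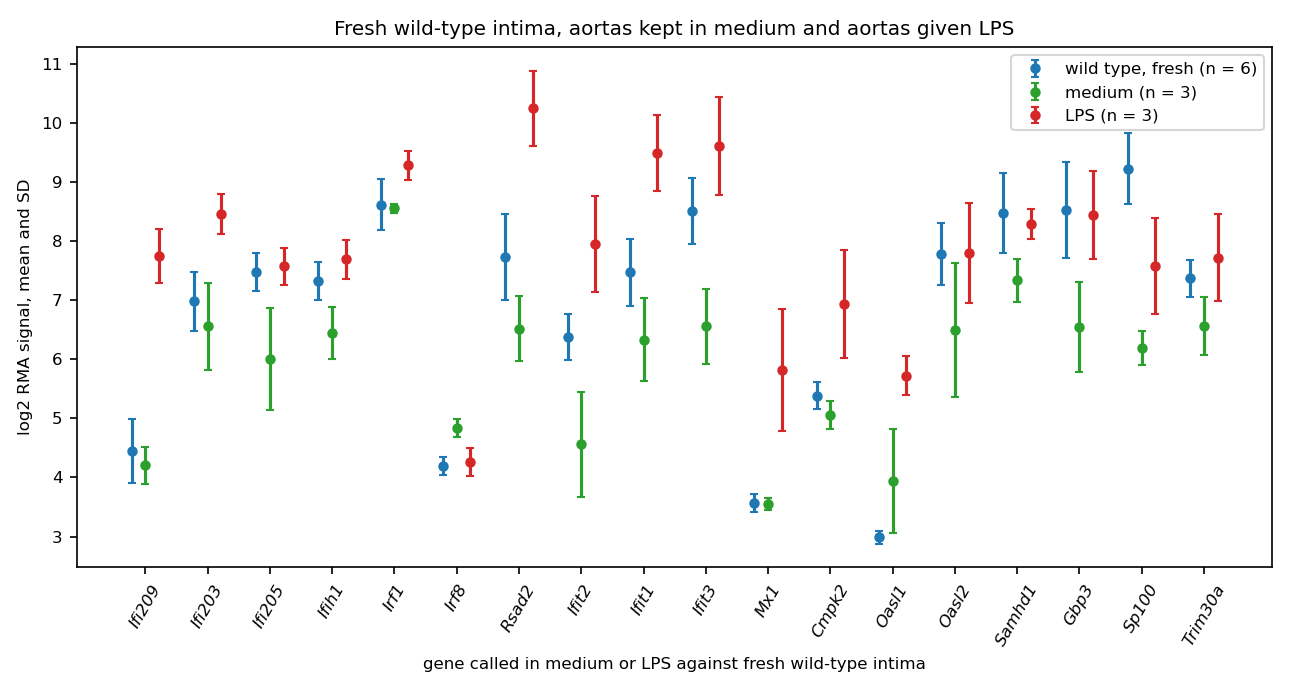
Log2 RMA signal (vertical axis, mean with SD) in fresh wild-type intima (n = 6), in medium (n = 3) and with LPS (n = 3) for the 18 members called in either comparison with fresh intima (horizontal axis). Rsad2 stands at 7.74, 6.52 and 10.25, Gbp3 at 8.53, 6.55 and 8.44, and Sp100 at 9.23, 6.19 and 7.58.

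In fresh intima none of the 29 tested members differed between ApoE -/- and wild-type mice in limma, where 0.427% of 7264 genes were called. No tested member had groups without overlap in either direction, against 1.94% of all genes wholly higher and 3.24% wholly lower in the knockout. At an unadjusted p under 0.05 there were 4 members, Ifit1, Rsad2, Trim30a and Gbp2, and 1328 genes. The tested members had a median difference of -0.26 (all genes -0.02), 23 of 29 being below 0. Ifit1 had the smallest p, with 6.23, 6.83, 7.34 and 6.06 in the knockout and 6.72 to 8.42 (median 7.46) in the wild type (-0.86 ± 0.32, 95% interval -1.55 to -0.17, adjusted p = 0.195 in limma). The largest difference was that of the GTPase Igtp (-1.20 ± 0.63, interval -2.58 to 0.18, adjusted p = 0.33 in limma). Ifnb1 and Cxcl10 were below the level filter, and no tested gene of the 6 pathway lists was called, Tlr4 among them.

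The wild-type side of this comparison held 1 array that stood apart. Replicate 14 was the highest of the 6 wild-type arrays for 24 of 38 members (63.2%), against 15.2% of all 11807 genes. Igtp was 10.65 there and 6.72 to 8.59 on the other wild-type arrays, and Irgm1 was 7.19 against 4.21 to 4.59. Iigp1 was 11.10 against 7.51 to 9.68, Ifi47 9.74 against 6.63 to 7.67 and Gbp2 9.94 against 7.38 to 8.30, and Gbp3 was also highest there. Of the effectors, Ifit1 (8.42), Ifit3 (9.50), Rsad2 (8.61), Oasl2 (8.41), Samhd1 (9.75), Cmpk2 (5.63) and Ifitm3 (11.55) were also highest on that array. Ifit2, at 6.67, was within the range of the others, and Mx1 and Oasl1 were below the 40th percentile on all wild-type arrays. Without it, the knockout minus wild-type differences were -0.72 for Igtp, -0.43 for Iigp1, -0.53 for Gbp2 and -0.67 for Ifit1, and no member was called. The mean macrophage marker level was 5.69 on that array and 5.04 to 5.58 on the others. The mean smooth muscle level was 9.37 to 9.56 in the knockout and 8.57 to 9.53 in the wild type. With that level as a covariate 0 members and 1 of all genes were called, in place of 0 and 31, and the part of the macrophage level in the member values was not tested.

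**Figure D5:**
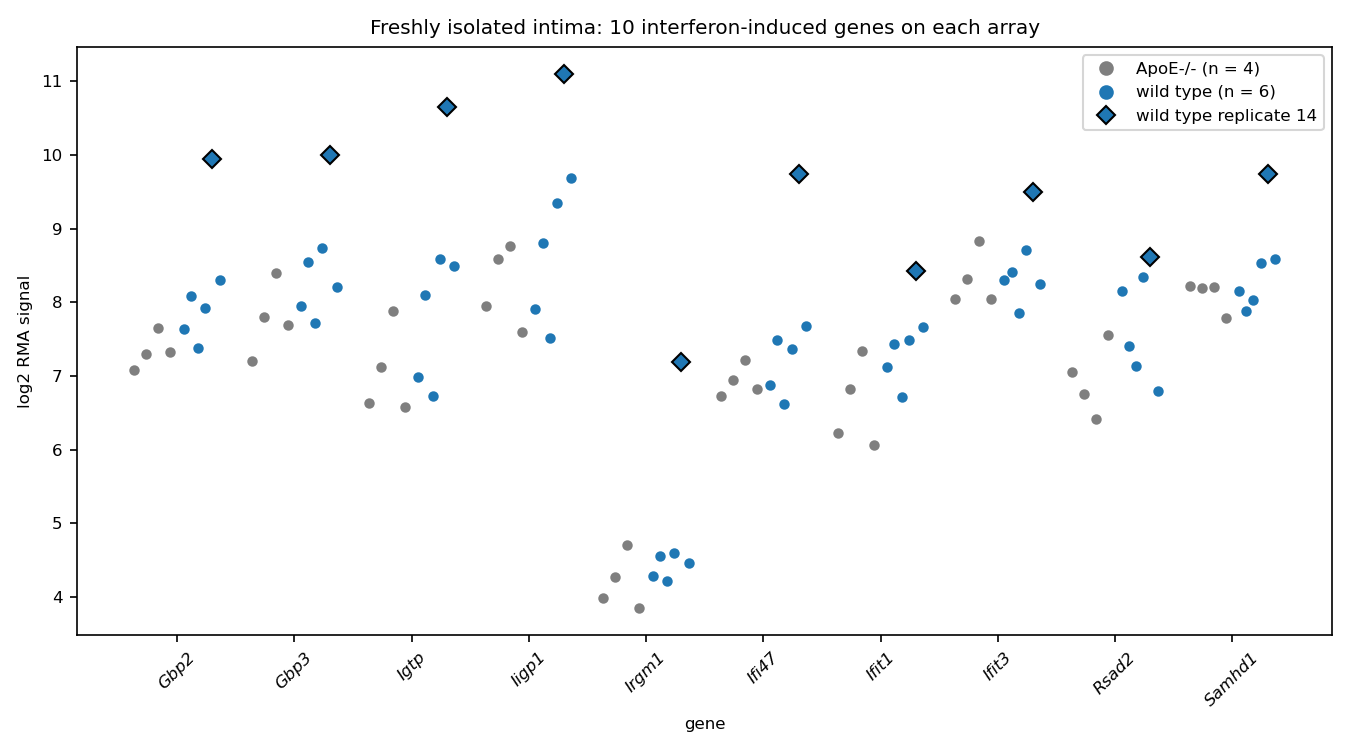
Log2 RMA signal (vertical axis) of 10 interferon-induced genes (horizontal axis) on each array of fresh intima from ApoE -/- (n = 4) and wild-type mice (n = 6), with wild-type replicate 14 as an outlined diamond. Replicate 14 is the highest point for all 10 genes, at 10.65 for Igtp and 7.19 for Irgm1.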

How the data were processed

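RNA of 22 intimal samples was amplified and hybridised to 1-colour arrays, 1 array per sample. The deposited values are log2 signals that the authors made with RMA (affy), per the submitters' processing notes; versions, genome build and whether all arrays were normalized together are not given in the sources used here. Of 22626 probe sets, 18003 had 1 gene symbol in the platform annotation, 287 several and 4336 none; 17977 were matched to RefSeq names (GRCm38.p6), giving 11807 genes, each represented by its brightest probe set on average. Groups came from the labels. limma 3.58.1 (R 4.3.3, lmFit and eBayes) was fitted to the 12 incubated arrays, to 9 arrays for medium or LPS against fresh wild type, and to 10 fresh arrays for the knockout. The level filter is given in the text. P-values were adjusted over all genes tested. The number of arrays limits the precision. The fit was tested on simulated data, where it recovered 67.2% of genes changed by 1 log2 unit for LPS against medium (7515 genes). By the naming rule, the called members were named with values (up to 12 by size of change, then by symbol), where none was called the 3 with the smallest p, and up to 4 called genes per pathway list (fewer against fresh intima, where counts are given), with Ifnb1, Tlr4 and Cxcl10 in any case; another gene of that rule is not reported here. Values of Zbp1, Irf9, Usp18, Igtp, Iigp1, Irgm1, Ifi30 and Serping1 with LPS, and of the genes of wild-type replicate 14, were added after they were seen. The members and lists were chosen with earlier results of these data known. Alternatives covered centring, filters, probe set choice, the variance model, the arrays fitted, a smooth muscle covariate and leaving out each array.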

Additional observations from a re-analysis of the deposited data

Results flagged for a closer look

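Among 76 sets of values (38 members in each of the 2 fresh groups), 6 held an array far from the others of its group by Dixon's test, where chance gives about 1 in 20. Of these, 4 were in wild-type replicate 14: Irgm1 at 7.19 (next highest 4.59), Ifi47 at 9.74 (7.67), Gbp2 at 9.94 (8.30) and Dhx58 at 4.59 (3.74). In the knockout, Ifitm3 was 11.19 in replicate 5 (next highest 11.09), and Samhd1 was 7.78 in replicate 6 (next lowest 8.20).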

How the results depend on the processing

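No paired analysis was possible because the groups compared share fewer than 2 replicate numbers. The count of called members for LPS against medium was 14, and it was 9 with the smooth muscle covariate and 9 to 19 with single arrays left out. For oxLDL against medium it was 0, and it was 1 with the 60th percentile filter, 1 with trend and robust eBayes, 1 with only the groups compared, and 0 to 1 with single arrays left out. For oxPAPC against medium it was 10, and it was 6 with the mean of all probe sets, 0 with the smooth muscle covariate, 6 with only the groups compared, and 3 to 9 with single arrays left out. For oxLDL against oxPAPC it was 3, and it was 5 with the 60th percentile filter, 6 with only the groups compared, and 0 to 4 with single arrays left out. For LPS against fresh wild type it was 11, and 9 to 18 with single arrays left out. The cause of these shifts was not tested. With single arrays left out the counts were 9 to 15 for LPS against oxLDL, 16 to 23 for LPS against oxPAPC and 8 to 13 for medium against fresh wild type, and 0 under every alternative run for the knockout. No change of a called member reversed in any alternative run that tested it; changes of members not called and of other genes were not followed across the alternatives. With 3 arrays a group, small differences may be missed.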

Other observations

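Wild-type replicate 14 was also the highest fresh wild-type array for 27 of 44 other interferon-induced genes (61.4%), against 15.2% of all genes. The GTPase gene Tgtp1 was 10.24 there and 6.16 to 7.98 on the other wild-type arrays. Cd274, the ligand of an inhibitory T cell receptor, was 7.91 against 5.01 to 5.96, the immunoproteasome subunit Psmb9 8.37 against 5.95 to 6.85, and Gbp7 10.35 against 8.19 to 9.21. Ifng itself was 2.87 on that array, within the 2.80 to 3.02 of all wild-type arrays and below the 40th percentile. That array was the highest also for 9 of 15 macrophage markers, 2 of 12 lymphocyte markers and 0 of 12 smooth muscle markers. The part of these cells in the values was not tested.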
